A study of Drosophila melanogaster with 25 samples.

Results

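Among RNAs of Drosophila cell nuclei, 97 genes were well represented in the nuclear inputs of BG3 cells and nearly without reads in those of Kc cells. They were chosen on levels in the inputs: a mean of at least 20 CPM (reads of a gene scaled to a common library size) over the 2 BG3 inputs and a mean below 1 CPM over the 6 Kc inputs, out of 16037 gene identifiers. The difference between the 2 lines in input is therefore how the genes were picked and is not a result. The name "only in BG3" holds in level but not in detection, since 93 of the 97 had at least 1 read in the Kc inputs and 4 had none. Just inside the BG3 threshold lay 3 genes at 20.2, 20.5 and 20.6 CPM, and just outside it 3 genes at 19.97, 19.6 and 19.0 CPM. At the Kc threshold the members nearest to it held 0.961, 0.854 and 0.789 CPM, and the first genes beyond it held 1.01, 1.03 and 1.10 CPM.

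BG3 cells are a line from the larval central nervous system, and Kc cells, labelled Kc167, are an embryonic line with properties of blood cells. In RNA immunoprecipitation with sequencing, a protein is captured with an antiserum and whatever RNA stays bound to it is sequenced. Here the extracts were nuclear, preimmune serum was used for preclearing, and polyadenylated RNA was selected. The antisera were Gp60 against Su(Hw), and Rb5, Rb6 and Gp01 against Shep. The BG3 groups were input, Shep Rb5 and Su(Hw) Gp60 with 2 libraries each. The Kc groups were input (6 libraries), Shep Rb5 (3), Shep Rb6 (2), Shep Gp01 (2) and Su(Hw) Gp60 (3), untreated in all groups as far as the labels say. No mock precipitate was used here.

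Su(Hw) is a zinc-finger protein that binds DNA and founds the gypsy insulator, a complex that shields promoters from enhancers beyond it. Shep is an RNA-binding protein known to oppose that insulator in the nervous system. An RNA that is abundant in BG3 nuclei and nearly without reads in Kc nuclei can be followed through both precipitates in BG3 cells, while the Kc precipitates show what is read there for a gene with almost no input.

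The deposited tables give FlyBase identifiers without symbols, and the RefSeq gene table used for names paired none of the 97 with a symbol (0 of 97). No gene here is therefore given a name or a function. Of 26 marker genes of neural and blood cells, 0 could be tied to an identifier, so the labelled cell types were not checked against markers. Of 11 gene lists of neural, patterning, muscle, blood and signalling genes, 6 entries had an identifier. With 0 of the 97 paired with a symbol no entry could match a member, so overlap with the lists is unknown. Identifiers are printed for the few genes that the results turn on.

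The reads counted in genes numbered from 25625321 to 48754771 in the 6 BG3 libraries and from 6190633 to 59066733 in the 16 Kc libraries. FBgn0085813 alone took 2.75% to 30.1% of these counts and was left out of levels and tests. In BG3 Su(Hw) 1 the 100 highest genes held 77.8% of the remaining counts, against 40.7% to 58.9% in the other BG3 libraries. Its scaling factor by the trimmed mean of M-values (TMM) was 0.426, against 0.828 to 1.1999 in the others. Levels below are CPM divided by this factor (scaled CPM) unless called plain CPM, which the choice of genes used. The samples of a group are called biological replicates by the labels, and every p-value rests on that.

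Within the BG3 inputs the 97 genes covered a wide range, from 20.2 to 461 plain CPM with a median of 38.4. There were 18 genes at 100 plain CPM or more and 51 below 40, and the 10 highest held 37.6% of the summed level. They made up 2.28% of all genes at 20 plain CPM or more in these inputs. The others at that level, 4161 genes, had a median of 58.9 plain CPM. The 97 were thus on the whole lower than other genes past the same threshold. The highest member was FBgn0039073, with 626 and 388 scaled CPM in the 2 inputs.

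Agreement between the 2 inputs varied by gene. The higher input exceeded the lower by a median ratio of 1.498, and for 17 genes the ratio was above 2. FBgn0039315 was the extreme, at 3.96 and 48.4 scaled CPM, and its place among the 97 rests on input 2. Both inputs reached 20 plain CPM for 74 of the genes, and for 82 each single Kc input was below 1. In the precipitates the 2 libraries differed by a median ratio of 1.41 with Shep Rb5 and 1.41 with Su(Hw), and by more than 2 for 7 and 11 genes.

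**Figure D1:**
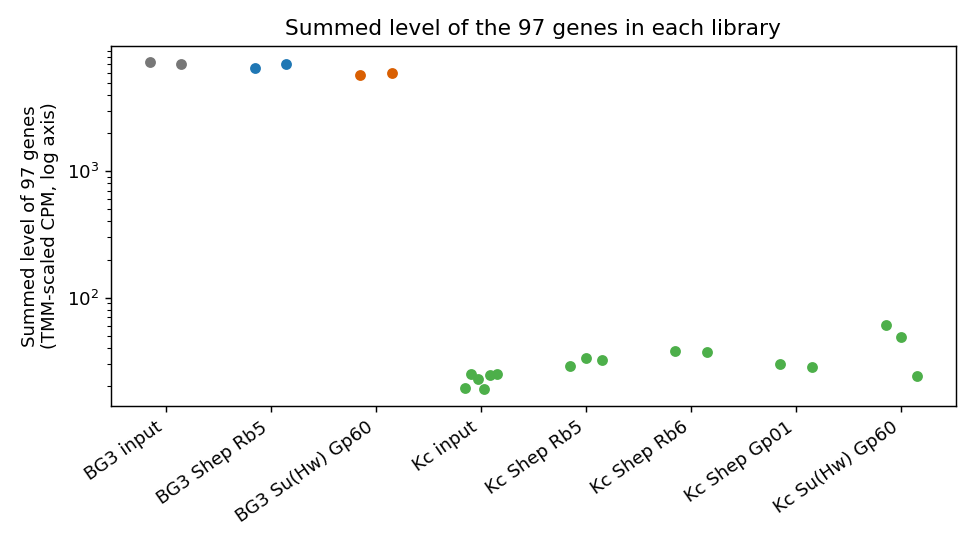
Summed level of the 97 genes (TMM-scaled CPM, log axis) in each of the 22 libraries, 1 point a library, by group. The 6 BG3 libraries lie between 5761 and 7288, and the 16 Kc libraries between 18.8 and 60.5.

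The 97 RNAs were present in both BG3 precipitates. Summed, they lay near their scaled input level with Shep Rb5 and below it with Su(Hw). Their summed level was 7150 ± 196 scaled CPM in the inputs (SD, n = 2), 6818 ± 279 with Shep Rb5 (n = 2) and 5894 ± 188 with Su(Hw) (n = 2). By library these sums were 7288 and 7011 in the inputs, 6621 and 7015 with Shep Rb5, and 5761 and 6026 with Su(Hw). Both Su(Hw) libraries lay below all 4 others, and the Shep Rb5 and input libraries overlapped. An exact test of 2 libraries against 2 cannot pass 0.05, and none is given. The Su(Hw) sums depend on the scaling: in plain CPM they were 2455 and 5250, against 6033 and 7314 in the inputs and 6831 and 8417 with Shep Rb5. All 97 genes had reads in each BG3 library, the lowest count being 11, in a Su(Hw) library.

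Single genes ranged from 10.2 to 320 scaled CPM with Shep Rb5 (median 48.4) and from 8.08 to 220 with Su(Hw) (median 37.7), beside a median of 41.4 in the inputs. The ranking of the genes changed little between the precipitates: across the 97 genes, Spearman's rho was 0.83 between Shep Rb5 and Su(Hw). It was 0.72 between input and Shep Rb5 and 0.68 between input and Su(Hw). These coefficients describe genes within libraries of 1 cell line and 1 sequencing class, and genes are not independent replicates. The highest RNA with Shep Rb5 was FBgn0004863, at 346 and 295 scaled CPM beside 322 and 259 in the inputs and 147 and 214 with Su(Hw). With Su(Hw), FBgn0036428 and FBgn0015774 led, at means of 219.61 and 219.56. These 3 genes, and the others singled out by level, were picked once their values had been seen.

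The comparison of the 2 precipitates with each other asks which of the 97 RNAs were recovered more with one protein than with the other. The fold is between libraries that took no part in the choice of genes, while the inputs enter the fit through its filter, scaling and spread. Leaving out either BG3 input let more genes past the filter. The number called then rose among the members and among all genes tested. With Shep Rb5, 6 of the 97 were higher and 2 lower than with Su(Hw) in edgeR's quasi-likelihood test adjusted over 9761 genes. That is 8.25% of the members beside a background of 14.9% of all genes tested, with 8.15% higher and 6.79% lower. The members' share of calls was thus not above the background in this fit. The median log2 fold of the 97 was 0.26, beside -0.01 for all genes tested and 0.11 for the other genes at 20 plain CPM or more in the inputs. Without Su(Hw) 2 and without Shep Rb5 1 the median of the 97 was 0.45 and 0.41, beside 0.06 and 0.01 for all genes. It was 0.18 with RLE scaling and 0.18 with DESeq2, beside -0.08 and -0.08 for all genes. The BG3 libraries alone gave 0.21 and limma voom 0.22, beside -0.02 and -0.05.

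FBgn0033438 stood highest on the Shep side. It held 69.3 and 78.0 scaled CPM with Shep Rb5, 17.8 and 18.2 with Su(Hw) and 50.4 and 63.6 in the inputs. The Su(Hw) libraries were below all 4 others. Its log2 fold of Shep Rb5 over Su(Hw) was 2.04 ± 0.42 (SE, edgeR adjusted p = 0.00303). FBgn0005771 held 46.9 and 66.1 scaled CPM with Shep Rb5, 15.6 and 25.9 with Su(Hw) and 16.3 and 31.6 in the inputs. Here the Shep libraries were above the rest, while Su(Hw) and input overlapped. The log2 fold between the precipitates was 1.43 ± 0.35 (edgeR adjusted p = 0.00986). The other 4 higher genes had log2 folds from 1.10 to 1.33.

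On the Su(Hw) side both called genes stood out against input as well. FBgn0015774 held 292 and 147 scaled CPM with Su(Hw), 51.6 and 72.5 with Shep Rb5 and 40.6 and 94.6 in the inputs. Shep Rb5 and input overlapped for this gene, and both Su(Hw) libraries lay above them. Its log2 fold of Shep Rb5 over Su(Hw) was -1.82 ± 0.43 (edgeR adjusted p = 0.00826), and it was not called with the replicate number as a block (edgeR adjusted p = 0.0638). FBgn0032681 held 172 and 180 scaled CPM with Su(Hw), 73.9 and 62.4 with Shep Rb5 and 59.4 and 47.3 in the inputs. The 3 groups did not overlap, and the 2 Su(Hw) libraries were close to each other. The log2 fold was -1.37 ± 0.36 (edgeR adjusted p = 0.0154).

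**Figure D2:**
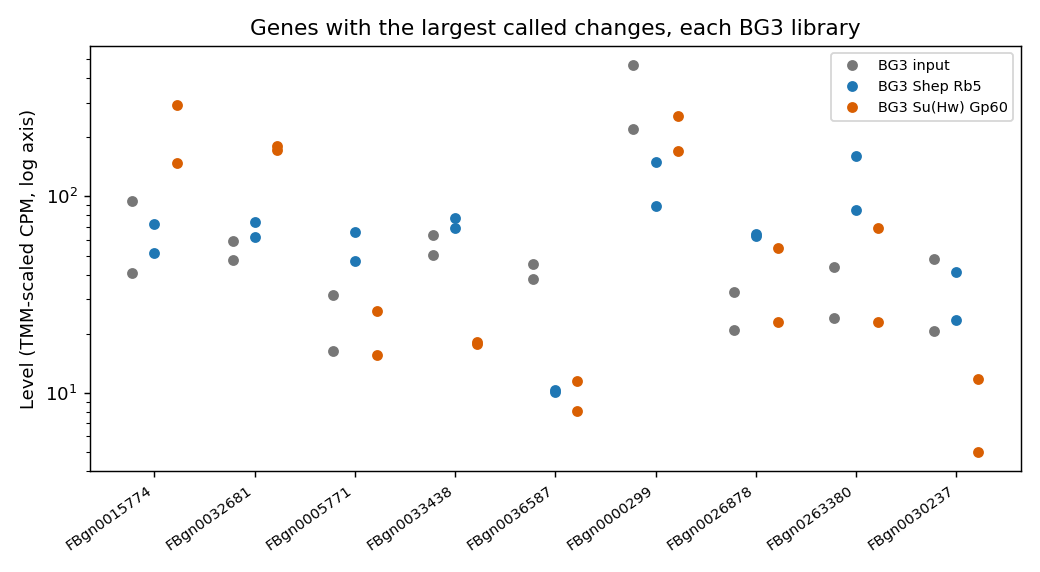
Levels (TMM-scaled CPM, log axis) in each of the 6 BG3 libraries for the 9 genes with the largest called changes in the 3 comparisons, 1 point a library. FBgn0015774 and FBgn0032681 are higher with Su(Hw), FBgn0033438 and FBgn0030237 lower with Su(Hw), and FBgn0036587 lower in both precipitates than in input.

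By library order alone, both Shep Rb5 libraries lay above both Su(Hw) libraries for 39 of the 97 genes and below them for 10. The background over all genes tested was 26.8% and 24.8%, and the members' shares were 40.2% and 10.3%. Among the other genes at 20 plain CPM or more the shares were 34.6% and 19.9%. The calls of this comparison depended on single libraries. Fewer of the 8 were called without Shep Rb5 1, Shep Rb5 2, Su(Hw) 1 or Su(Hw) 2. Without Shep Rb5 1, Shep Rb5 2 or Su(Hw) 1 fewer of all genes tested were called as well. The loss there is thus not particular to the 97. Without Su(Hw) 2 more of the 97 and more of all genes tested were called. FBgn0033438 passed without any 1 BG3 library (edgeR adjusted p from 0.00253 to 0.0361), FBgn0015774 did not without Shep Rb5 1 or Su(Hw) 1, FBgn0032681 without either Shep Rb5 library or Su(Hw) 1, and FBgn0005771 without Shep Rb5 2 or Su(Hw) 1 (edgeR adjusted p up to 0.169).

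The next comparison asks which of these RNAs were recovered with Shep beyond their share of the input. The 2 inputs also served to choose the genes, which can favour falls near the threshold. Against input, 5 of the 97 genes rose and 6 fell with Shep Rb5 in edgeR, or 11.3%, beside a background of 11.8% of all genes tested, 5.46% higher and 6.31% lower. The count is at the background in this fit, while limma voom called 0 of the 97 beside 10.05% of all genes tested. The median log2 fold was 0.11, close to the 0.09 of all genes tested, while the other genes at 20 plain CPM or more had a median of -0.26. It was 0.07 without Shep Rb5 1 and 0.17 without input 2, beside 0.14 and 0.21 for all genes. Of those other genes 3.36% rose and 13.0% fell, against 5.15% and 6.19% of the 97; this difference was not tested.

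FBgn0263380 had the largest rise, with 161 and 84.9 scaled CPM with Shep Rb5, 43.9 and 23.9 in the inputs and 69.1 and 23.0 with Su(Hw). Both Shep libraries were above all others, and they differed widely from each other. The log2 fold over input was 1.86 ± 0.51 (edgeR adjusted p = 0.0294). FBgn0026878 had a log2 fold of 1.25 ± 0.39, with 64.0 and 63.0 scaled CPM against 32.4 and 21.0 in the inputs (edgeR adjusted p = 0.0463). The other rises were FBgn0005771 at 1.24 ± 0.35, FBgn0039709 at 1.10 ± 0.29 and FBgn0010313 at 1.01 ± 0.27 (edgeR adjusted p = 0.0300, 0.0204 and 0.0237).

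Among the falls, FBgn0036587 held 10.3 and 10.02 scaled CPM with Shep Rb5 against 45.1 and 37.9 in the inputs. The precipitates lay well below the inputs and within a narrow range. Its log2 fold was -2.03 ± 0.35 (edgeR adjusted p = 0.00547). FBgn0000299 held 149 and 89.0 scaled CPM against 466 and 221 in the inputs, with a log2 fold of -1.53 ± 0.35 (edgeR adjusted p = 0.0121). Input 1 held more than input 2 by a wide margin for this gene. The highest member in input, FBgn0039073, fell to 233 and 159 scaled CPM, which is -1.37 ± 0.40 as log2 fold (edgeR adjusted p = 0.0347).

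Calls against input with Shep Rb5 rested on few libraries. The 6 BG3 libraries alone gave 0 calls in edgeR among the members and 1 among the 8575 genes tested there. At an unadjusted p under 0.05 in that fit were 23 members and 1885 of all genes tested. Fewer of the 11 genes were called without input 1, input 2, Shep Rb5 1 or Shep Rb5 2. The share of all genes tested that was called was lower in each of these fits as well. The loss is thus not particular to the members. FBgn0026878 did not pass without any 1 of these 4 libraries, and FBgn0263380 did not without either input or Shep Rb5 1. FBgn0036587 was not called without input 1 or Shep Rb5 1, nor FBgn0000299 without input 1, where its log2 fold was -0.83, or without Shep Rb5 2.

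**Figure D3:**
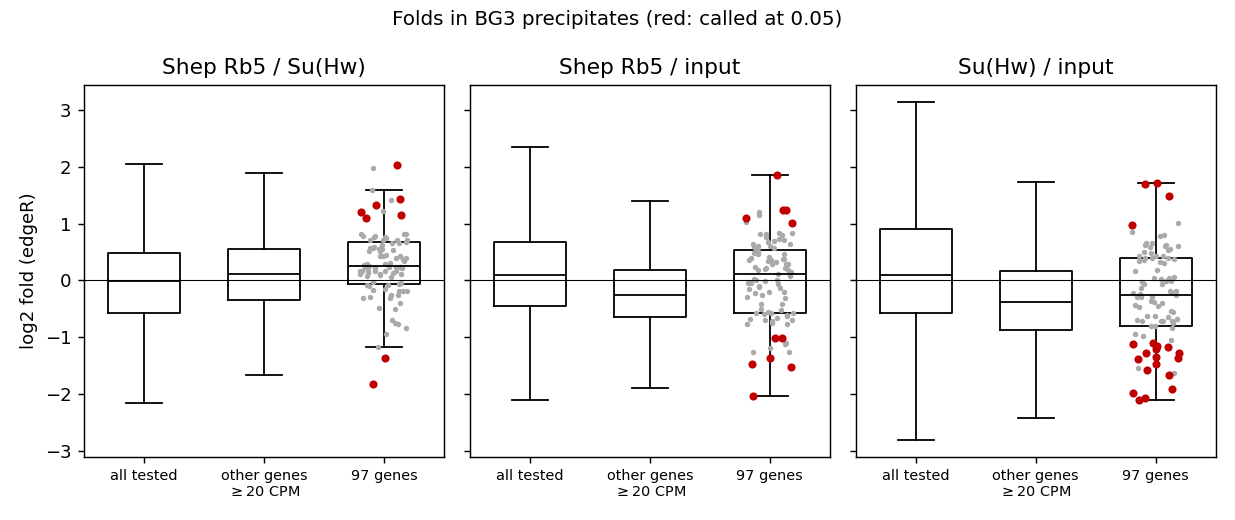
Log2 folds from edgeR in the 3 BG3 comparisons for all 9761 genes tested, the 4161 other genes at 20 plain CPM or more in the BG3 inputs, and the 97 genes (points, red where called). Boxes show quartiles and medians, whiskers reach 1.5 times the box height and outliers are not drawn; the medians of the 97 are 0.26, 0.11 and -0.25 from left to right.

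With Su(Hw), more of the 97 RNAs were below their input share than above it. In edgeR 17 fell and 4 rose, 21.6% of the members beside a background of 28.6% of all genes tested. By direction the background was 15.2% lower and 13.5% higher, and the members' shares were 17.5% and 4.12%. The median log2 fold was -0.25, against 0.09 for all genes tested and -0.38 for the other genes at 20 plain CPM or more. It was -0.49 without Su(Hw) 2, -0.14 without input 2 and -0.14 with RLE scaling, beside 0, 0.15 and 0.22 for all genes. In the main fit 29.0% of the other genes at 20 plain CPM or more fell and 6.99% rose. Genes past the same input threshold thus also fell more often than they rose. This comparison shares its inputs with that of Shep Rb5 and with the choice of genes.

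The lowest was again FBgn0036587, at 11.5 and 8.05 scaled CPM with Su(Hw) against 45.1 and 37.9 in the inputs, which is -2.10 ± 0.36 as log2 fold (edgeR adjusted p = 0.00115). It passed without any 1 BG3 library. FBgn0030237 held 11.8 and 5.00 scaled CPM against 48.2 and 20.7 in the inputs, while Shep Rb5 held 41.1 and 23.6. Its Shep libraries overlapped the inputs, and its Su(Hw) libraries lay below both. The log2 fold of Su(Hw) over input was -2.07 ± 0.67 (edgeR adjusted p = 0.0300). FBgn0033438, described above, had a log2 fold of -1.66 ± 0.41 over input (edgeR adjusted p = 0.00606).

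Rises with Su(Hw) were those of FBgn0032681 at 1.73 ± 0.37, FBgn0015774 at 1.70 ± 0.43, FBgn0259240 at 1.49 ± 0.39 and FBgn0039709 at 0.98 ± 0.29 in log2 folds (edgeR adjusted p = 0.00210, 0.00714, 0.00923 and 0.0156). FBgn0259240 held 102 and 108 scaled CPM with Su(Hw), 51.2 and 72.3 with Shep Rb5 and 27.8 and 47.3 in the inputs. The 3 groups did not overlap for it, and the difference between the precipitates was not called at -0.77 ± 0.39 (edgeR adjusted p = 0.200). Fewer of the 21 genes were called without input 1, input 2, Su(Hw) 1 or Su(Hw) 2. The share of all genes tested that was called was lower in each of these fits as well. FBgn0015774 was not called without input 1 or Su(Hw) 1, with log2 folds of 1.15 and 1.12. With the replicate number as a block it was not called either (edgeR adjusted p = 0.0541). FBgn0030237 was not called without input 1 or Su(Hw) 2.

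Seen across the 3 comparisons, 69 of the 97 RNAs were called in none, 28 in at least 1 and 0 in all. The comparisons share libraries with each other, which favours shared calls for any genes. These counts and the overlaps below were not made over all genes tested, so no trait of the 97 is read from them. Against input 5 genes were called with both proteins, which share these inputs. FBgn0036587, FBgn0039073, FBgn0039896 and FBgn0016122 fell with both, and FBgn0039709 rose with both. FBgn0039709 held 30.3 and 34.7 scaled CPM in the inputs, 75.2 and 63.8 with Shep Rb5 and 69.3 and 59.1 with Su(Hw). The precipitates overlapped each other and lay above the inputs. FBgn0039896 held 87.7 and 150 scaled CPM in the inputs, 32.5 and 52.8 with Shep Rb5 and 45.6 and 44.8 with Su(Hw), again with overlap of the precipitates alone. FBgn0016122 had 48.5 and 35.3 in the inputs and 17.3 to 24.1 in the precipitates. Of the 8 genes called between the precipitates, 6 were also called with Su(Hw) against input and 1 with Shep Rb5 against input.

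The Kc precipitates took no part in the choice of genes. For all 97 each of the 4 BG3 precipitates lay above each of the 10 Kc precipitates, an order that 13.2% of all genes tested showed. The choice of genes by their inputs all but fixed this order, and nothing is read from the count. For 94 of the 97 the lowest BG3 precipitate exceeded the highest Kc precipitate at least 5-fold, and the median of this ratio was 45.5. The same choice favours so wide a gap, so its size is not read as a result either. The narrowest gap was that of FBgn0264748, whose lowest BG3 precipitate held 4.31 scaled CPM and whose highest Kc precipitate held 2.85. In bulk samples such as these, fewer cells with an RNA and less of it in each cell cannot be told apart.

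**Figure D4:**
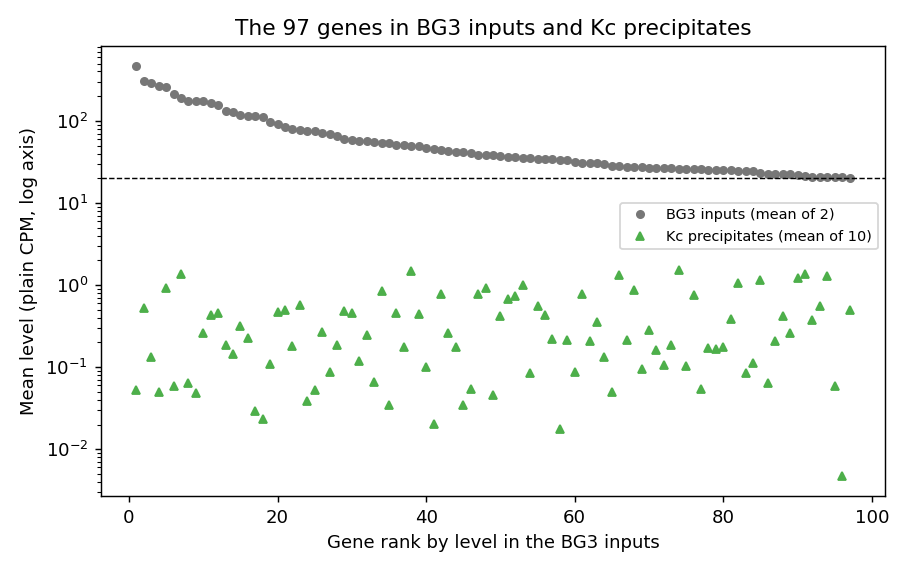
Mean level (plain CPM, log axis) of each of the 97 genes in the 2 BG3 inputs and in the 10 Kc precipitates, ordered by level in the BG3 inputs; the dashed line is the threshold of 20 CPM used to choose the genes. The Kc means stay below 1.53 CPM at every rank.

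At the bottom of the range the Kc libraries were not all alike. Summed over the 97 genes, the Kc inputs held 18.8 to 24.9 scaled CPM (22.5 ± 2.74, SD, n = 6). The sums were 31.4 ± 2.21 with Shep Rb5 (n = 3), 37.3 ± 0.462 with Shep Rb6 (n = 2) and 28.8 ± 1.02 with Gp01 (n = 2), and the 7 Shep libraries lay above all inputs. Kc Su(Hw) libraries 1, 2 and 3 held 60.5, 48.5 and 23.8, so the third fell within the inputs. In plain CPM these libraries held 43.9, 31.0 and 18.96, beside 21.7 to 27.7 in the inputs and 37.2 to 42.2 in the Shep libraries. On that scale the third lay below all inputs and the second below all Shep libraries, while the Shep libraries were again above all inputs. The inputs had been capped by the choice of genes and the precipitates had not, and the part of that cap in the difference was not tested. In plain CPM 81 of the 97 genes had a higher mean in the Kc precipitates than in the Kc inputs, 10 had a mean of at least 1, and the highest value in any Kc precipitate was 3.16. The count of 81 was not made over all genes and the cap can favour it, so nothing is read from it.

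The opposite set, 58 genes with at least 20 plain CPM in the Kc inputs and below 1 in the BG3 inputs, was read in the BG3 libraries in the same way. Its sum was 17.5 and 16.4 scaled CPM in the BG3 inputs, 26.8 and 23.9 with Shep Rb5 and 54.2 and 24.7 with Su(Hw). In plain CPM the sums were 14.5 and 17.1 in the inputs, 27.6 and 28.65 with Shep Rb5 and 23.1 and 21.5 with Su(Hw). All 4 precipitates lay above the capped inputs on both scales. Su(Hw) 1, the library with the scaling factor of 0.426, was the highest of them only on the scaled one.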

How the data were processed

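The authors deposited raw read counts per gene for each of 25 samples. Per the submitters' processing notes the build was dm3, and HTSeq, DESeq, Bowtie2, TopHat2 and cutadapt 1.2.1 were used. The strand setting and annotation release are not given in the sources read, so counts of overlapping and antisense genes are uncertain. In 3 samples the file equals that of another sample, which left 22 libraries. Lines that name no gene held 50.2% to 91.2% of the counts and were left out, as was FBgn0085813.

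Differences were tested with edgeR 4.0.16 (limma 3.58.1, R 4.3.3; robust quasi-likelihood, TMM) over all 22 libraries, with 1 mean per group and 4 sequencing classes (machine and quality encoding) as a covariate. All BG3 libraries are of 1 class. The filter (minimum count 10, total 15) left 9761 genes, and all 97 members passed; 3 comparisons were each adjusted by Benjamini-Hochberg at 0.05. An SE is the fold over the root of its F statistic. The script was tested on simulated data.

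The members, gene lists and comparisons were chosen with earlier results of these data known. Since 0 members have a symbol, the rule for named genes gives the 2 largest called rises and falls of each comparison with libraries apart; others were picked once their values had been seen. Promoter motifs were not analysed here. Alternatives were RLE scaling, DESeq2 1.42.0, limma voom, no filter, no class, a replicate block, fewer libraries and FBgn0085813 kept.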

Additional observations from a re-analysis of the deposited data

How the results depend on the processing

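Main counts of called members were 8 (Shep Rb5 against Su(Hw)), 11 (Shep Rb5 against input) and 21 (Su(Hw) against input), and no main call changed direction under any alternative run. In that order, limma voom gave 1, 0 and 3 calls. At an unadjusted p under 0.05 it had 4, 4 and 11 members, beside 2543, 2536 and 3695 of 9761 genes tested. The 6 BG3 libraries alone gave 2, 0 and 19, and no sequencing class 3, 1 and 14. HiSeq PHRED64 libraries alone gave 3, 1 and 21, and no filter 18, 17 and 29. Among all genes tested, voom called 12.1%, 10.05% and 25.9%, so its few member calls lay below that background. In the same order the shares of all genes were 3.58%, 0.0117% and 15.2% with the BG3 libraries alone. They were 8.90%, 2.92% and 18.5% without the class and 5.23%, 0.41% and 18.2% with HiSeq PHRED64 libraries. Without the filter they were 10.5%, 7.29% and 18.6%. DESeq2 gave 9, 19 and 22, with 11 higher and 8 lower for Shep Rb5 against input, where edgeR had 5 and 6. Of all genes tested, DESeq2 called 18.9%, 17.9% and 31.35%. The cause of these changes was not tested. Leaving out 1 library gave 2 to 12, 1 to 12 and 11 to 21 calls. Replicate differences correlated between same-numbered BG3 groups at r = 0.65, 0.383 and 0.433 over 9761 genes, and libraries 1 and 2 had the same order in all 3 groups for 69.1% of the members and 48.0% of all genes; the numbers are not stated to mark a shared extract. With the replicate block in place of the class the counts were 9, 16 and 25, beside 16.0%, 12.3% and 29.05% of all genes. With the block and the BG3 libraries alone, added after seeing the data, they were 32, 44 and 45. There 29.05%, 31.7% and 45.2% of all genes were called. The block ended both calls of FBgn0015774 (edgeR adjusted p = 0.0638 and 0.0541). Of 192 values of named genes under alternatives, 136 stayed past the threshold, 56 did not and 0 changed sign.

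RLE scaling moved the median log2 fold of all genes by 0.13 for Su(Hw) against input, and with FBgn0085813 kept 56.7% of all calls of Shep Rb5 against input were higher, in place of 46.4%. All genes called in the 3 comparisons numbered 1459, 1149 and 2795, and 307, 1 and 1303 with the BG3 libraries alone. The rule gave 151 genes at a BG3 threshold of 10 CPM, 46 at 40 CPM and 63 where every single input had to pass. It gave 76 at a Kc threshold of 0.5 CPM and 100 on scaled CPM. With FBgn0085813 kept it gave 77 genes, of which 74 were among the 97. Each BG3 group has 2 libraries, and the effect of read depth on the calls was not tested. The sums in Kc cells rest on 179 to 2131 reads a library.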
